A study of Rattus norvegicus with 8 samples.

Results

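The genes described here are the ligands and receptors of the tumour necrosis factor (TNF) superfamily, the TRAF, Fadd and Tradd adaptors that the receptors recruit, and the Ripk kinases. They were chosen by gene symbol, and 43 of the 14506 genes measured had such a symbol, each with 1 probe set that was paired with no other gene. They comprised 14 ligands, 5 membrane receptors with a death domain, 14 other receptors, 6 adaptors and 4 Ripk kinases. A further probe set that names Traf7 together with another gene was left out. The cells were primary ventricular cardiomyocytes of newborn rats (NRVMs) in 6 cm dishes, transfected by lipofection with a miR-222 precursor (4 arrays) or with a scrambled control precursor (4 arrays), each at 0.4 µM, and their RNA was taken 48 h later. Strain, sex and number of animals are not given in the sources used here, and the labels do not say whether each array stands for a culture of its own. The p-values therefore measure the spread between arrays only, and that spread may be technical. The control RNA has a sequence of its own, and no untransfected cells were analysed here, so effects of that sequence and of miR-222 cannot be told apart in a difference between the groups.

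TNF superfamily ligands are mostly membrane proteins that act as trimers on receptors of neighbouring cells. Membrane receptors with a death domain can recruit Fadd and caspase-8 to start apoptosis. They can also recruit Tradd, Ripk1 and Traf2 to activate NF-kappaB and the kinase JNK. The other receptors bind TRAF proteins directly or, as secreted decoys, only hold a ligand. In the heart TNF and its receptors are known from work on heart failure, Fas and TRAIL receptors from myocyte death, and the TWEAK receptor Fn14 from fibrosis and growth. MiR-222 acts by pairing of its seed, bases 2 to 8, with messenger RNAs. The mature sequences are shown because they define the agent that was tested, with the seed in capitals (RefSeq, GRCr8, plus strand of chromosome X). The labels do not name the arm. The 3p arms of miR-222 and of its neighbour miR-221 share the seed, and the 5p arm of miR-222 has another.
rno-miR-222-3p: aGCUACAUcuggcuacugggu
rno-miR-221-3p: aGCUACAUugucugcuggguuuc
rno-miR-222-5p: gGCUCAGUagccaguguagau

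In cells given miR-222 the death receptor genes Fas, Tnfrsf10b and Tnfrsf1a were higher, whereas Tnfrsf11b, which encodes the soluble decoy receptor osteoprotegerin, was 2.51-fold lower and moved more than any other member. Fadd, the adaptor that Fas and TRAIL receptors use, was 1.47-fold lower. In the limma test no ligand was higher past the threshold (1 at an unadjusted p under 0.05, Tnfsf12) and 2 of 14 were lower, Tnfsf10 (TRAIL) and Tnfsf15 (TL1A). Of 4 Ripk kinase genes none was called by limma (1 at an unadjusted p under 0.05, Ripk3). Levels are log2 intensities, a fold change is the log2 level with miR-222 minus that with control, given with its standard error (SE) from limma (n = 4 arrays each), and a gene was called at a Benjamini-Hochberg adjusted p under 0.05, adjusted over all probe sets of the array.

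**Figure D1:**
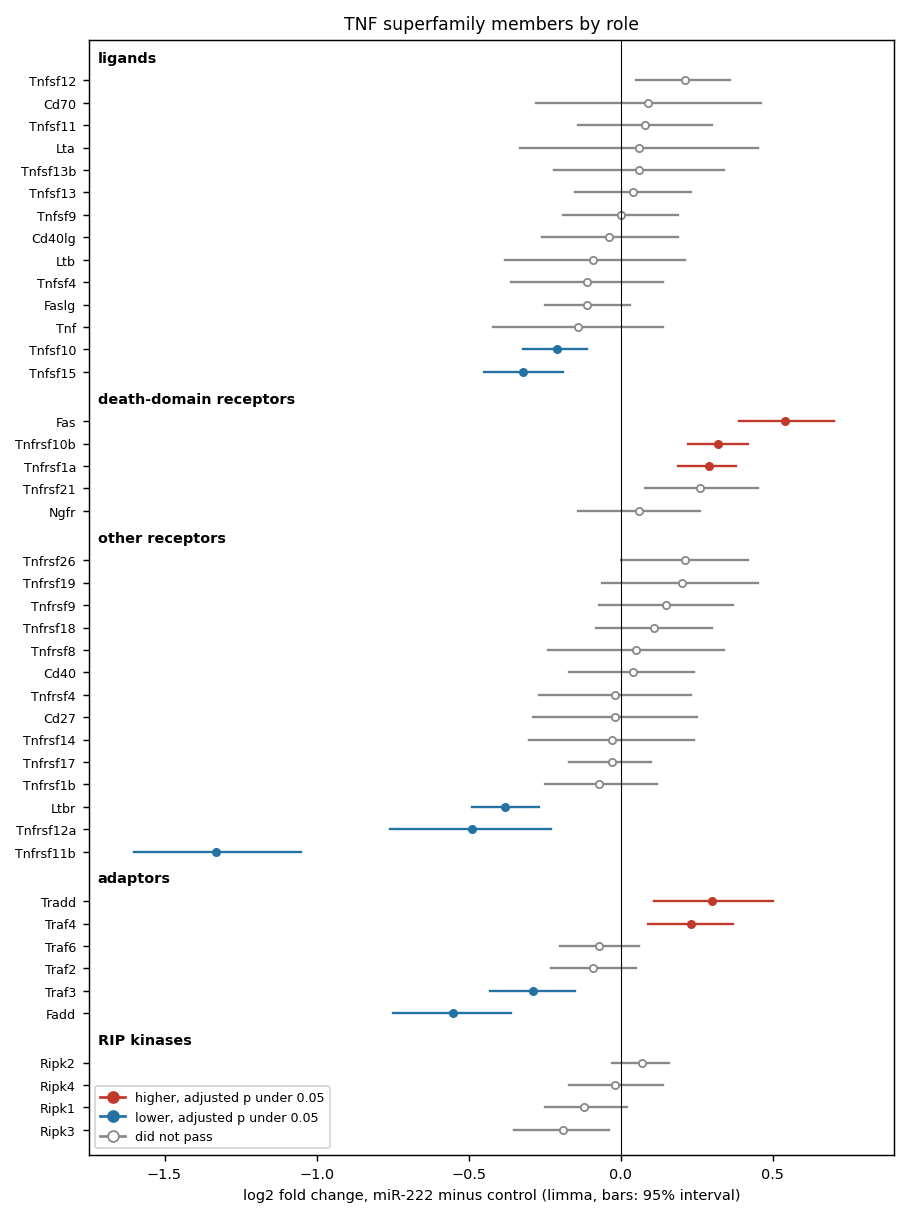
Log2 fold change of miR-222 minus control (x axis) for the 43 genes (y axis), grouped by role, with the 95% interval of the limma fit as bars and filled points for genes past the threshold. Of 5 membrane receptors grouped as death-domain receptors 3 lie to the right of zero and past the threshold. Tnfrsf11b, grouped with the other receptors, lies far to the left at -1.33.

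Of the 43 genes 5 were called higher and 7 lower, which is 27.9% beside 24.7% of all genes (11.7% higher and 13% lower). The share was close to the background, and the count by itself is no result about the family. The median log2 fold change was -0.02 over the family, against 0.01 over all genes. In 14 members the miR-222 values all lay above (7) or all below (7) the control values, beside 33.3% of all genes (16.4% above and 17% below). Many members were dim. Their median level was 7.40 log2 units, against 8.39 over all genes. Of the 14 members above the median level of all genes 9 were called, beside 39.5% of all genes there. Of the 29 members below it 3 were called, beside 9.9% of all genes there. The table gives no detection calls, so for dim members a lack of signal and a lack of change cannot be told apart.

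**Figure D2:**
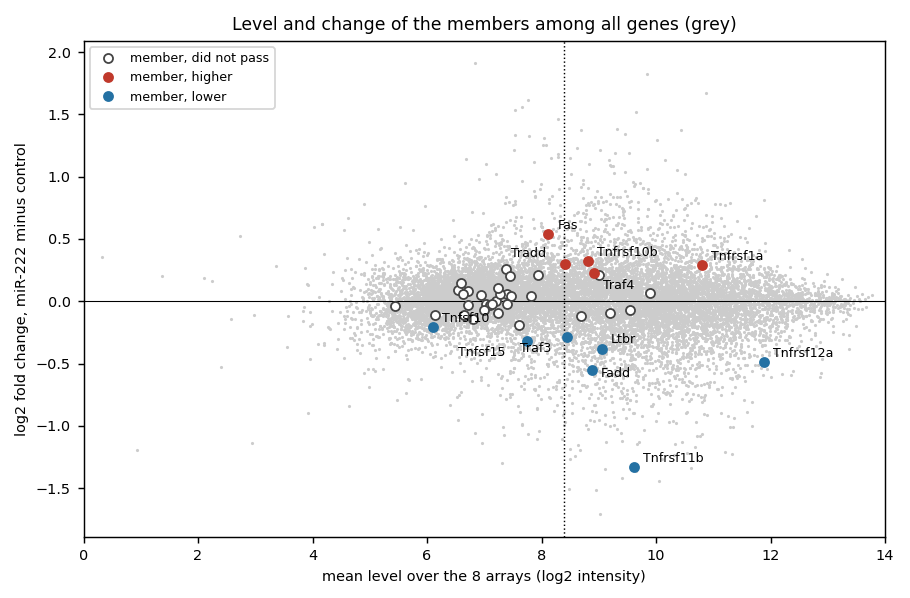
Mean level over the 8 arrays (x axis, log2 intensity) and log2 fold change of miR-222 minus control (y axis) of every gene (grey) and of the 43 members (circles, filled and named where past the threshold). The dotted line marks the median level of all genes, 8.39, and 3 named members lie to its left.

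The arrays correlated at 0.989 to 0.993 within groups and at 0.983 to 0.989 between groups, and array medians lay between 202 and 219 intensity units. All 6 cardiomyocyte markers were among bright probe sets, at mean levels of 12.26 to 13.36 log2 units. Their summed intensity was 50268 to 51545 in miR-222 arrays and 52801 to 53597 in control arrays, with 1 of 6 called lower. That was Ryr2, whose call held when miR-222 replicate 2 was removed and was lost on removing any of the other 7 arrays (limma adjusted p up to 0.112) or under quantile normalization (adjusted p = 0.0515). A few markers of other cells moved with the comparison as well. The summed intensity of 8 fibroblast markers was 9720 to 10982 in miR-222 arrays and 11974 to 12984 in control arrays, with 2 of 8, Fn1 and Postn, called lower and none higher. The call of Postn was lost when miR-222 replicate 1 or control replicate 2, 3 or 4 was left out (limma adjusted p up to 0.0572). That of 5 smooth muscle markers was 12161 to 14734 with miR-222 and 15578 to 15982 with control, with 1 of 5, Tagln, called lower. That of 5 endothelial markers was 910 to 1004 with miR-222 and 1457 to 1585 with control. Here 1 gene, Kdr, was called lower, at a log2 fold change of -1.51 (SE 0.09, limma adjusted p = 5.27e-05). Sums over the markers that were not called were taken after the values were seen. The called markers were left out by those same values, so an overlap of the rest is no test of the mix of cells. In these sums the groups overlapped for 4 endothelial markers, at 622 to 683 with miR-222 and 630 to 685 with control. They overlapped likewise for 6 fibroblast markers, at 6943 to 7910 with miR-222 and 7812 to 8473 with control, and for 4 smooth muscle markers, at 10981 to 13295 with miR-222 and 13179 to 13510 with control. The log2 fold changes of these markers ran from -0.13 to 0.04, from -0.22 to 0.11 and from -0.28 to 0.16, in the same order. Over the 5 cardiomyocyte markers left without Ryr2 the groups stayed apart, at 45783 to 46915 with miR-222 and 47591 to 48408 with control. Their log2 fold changes ran from -0.14 to -0.01. By limma none of 6 macrophage and leukocyte markers (1 at an unadjusted p under 0.05) and none of 4 lymphocyte markers (0 at an unadjusted p under 0.05) was called, and their summed intensities overlapped between groups, at 637 to 676 with miR-222 and 619 to 661 with control for macrophages and leukocytes. No marker was at 0. Genes of the TNF family are made by several of these cell types, so fewer cells of a type and less RNA per cell cannot be told apart, and the part that the mix of cells has in the changes below was not tested.

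The 14 ligand genes had mean levels of 5.44 to 9.0 log2 units and log2 fold changes of -0.32 to 0.21. Tnfsf15, which encodes the ligand TL1A of death receptor 3, measured 7.60, 7.65, 7.61 and 7.47 in miR-222 replicates 1 to 4, against 7.85, 8.0, 7.84 and 7.92 in control replicates 1 to 4. Every miR-222 value lay below every control value, a log2 fold change of -0.32 (SE 0.06, limma adjusted p = 0.00564). The gene of its receptor was not analysed here. Tnfsf10, which encodes the apoptosis-inducing ligand TRAIL, measured 6.02, 5.96, 6.00 and 6.00 with miR-222, against 6.28, 6.21, 6.11 and 6.24 with control. The groups did not overlap, and the change of -0.21 (SE 0.05, limma adjusted p = 0.0143) was seen at the percentile 8.87 of gene levels, the dimmest member that was called. Its call was lost when the spread was modelled as a trend over level with robust estimation (adjusted p = 0.116).

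Tnfsf12, the gene of TWEAK, was the brightest ligand and measured 9.03, 9.27, 9.09 and 8.99 with miR-222, against 8.87, 8.85, 8.95 and 8.89 with control. All its miR-222 values lay above the control values, but the difference of 0.21 (SE 0.07) did not pass (limma adjusted p = 0.0664). It passed when dim probe sets were left out (adjusted p = 0.0412) and with the trended, robust spread (adjusted p = 0.0406). The other 11 ligands did not pass either, and the groups overlapped in each. Tnf itself, the founding member, measured 6.60 to 6.86 with miR-222 and 6.69 to 7.24 with control, a difference of -0.14 with a 95% interval of -0.42 to 0.14. Faslg, the ligand of Fas, measured 6.44 to 6.68 with miR-222 and 6.66 to 6.74 with control, at -0.11 with an interval of -0.25 to 0.03. Tnfsf11, the bone-resorption ligand RANKL, differed by 0.08 (interval -0.14 to 0.30). Tnfsf13 and Tnfsf13b, the B cell ligands APRIL and BAFF, differed by 0.04 and 0.06. The lymphotoxin genes Lta and Ltb stood at 0.06 and -0.09, with intervals of -0.33 to 0.45 and -0.38 to 0.21. The costimulatory ligand genes Tnfsf4, Tnfsf9, Cd70 and Cd40lg lay between -0.11 and 0.09.

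Of 5 membrane receptors with a death domain 3 were called higher and none lower, beside 11.7% of all genes called higher. The gene of the secreted receptor osteoprotegerin, Tnfrsf11b, which was called lower, was counted among the other receptors. Tnfrsf10b and Tnfrsf1a lay above the median level of all genes, where 39.5% of all genes were called in either direction. Fas, Tnfrsf21 and Ngfr lay below it, where 9.9% were called. Fas, which triggers apoptosis through Fadd, measured 8.41, 8.38, 8.46 and 8.32 with miR-222, against 7.78, 8.03, 7.77 and 7.83 with control. The groups were well apart, with control replicate 2 the closest to the miR-222 arrays. The log2 fold change was 0.54 (SE 0.07, limma adjusted p = 0.00111), a 1.46-fold higher level. Tnfrsf10b, the TRAIL receptor DR5, measured 9.0, 8.94, 8.99 and 8.95 with miR-222, against 8.73, 8.60, 8.63 and 8.64 with control. The 4 miR-222 values lay within a narrow band above all control values, at a log2 fold change of 0.32 (SE 0.04, limma adjusted p = 0.00177).

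Tnfrsf1a, the widely expressed TNF receptor 1 that signals through Tradd, was the brightest of this group. It measured 10.90, 10.93, 11.01 and 10.94 with miR-222, against 10.65, 10.64, 10.66 and 10.69 with control. The groups did not overlap, and the log2 fold change was 0.29 (SE 0.04, limma adjusted p = 0.00203). Tnfrsf21, a death receptor known from neurons and T cells, measured 7.69, 7.41, 7.55 and 7.37 with miR-222, against 7.31, 7.10, 7.27 and 7.27 with control. Its groups did not overlap either, but the difference of 0.26 (SE 0.08) did not pass (limma adjusted p = 0.0574). It passed when p-values were adjusted over the genes only (adjusted p = 0.0443), when dim probe sets were left out (adjusted p = 0.0354) and without miR-222 replicate 4 (adjusted p = 0.0478). Ngfr, the neurotrophin receptor p75, overlapped between groups and differed by 0.06 with an interval of -0.14 to 0.26. The calls of Fas, Tnfrsf10b and Tnfrsf1a were kept without any single array, with adjusted p up to 0.0103, and under every other alternative that was run.

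**Figure D3:**
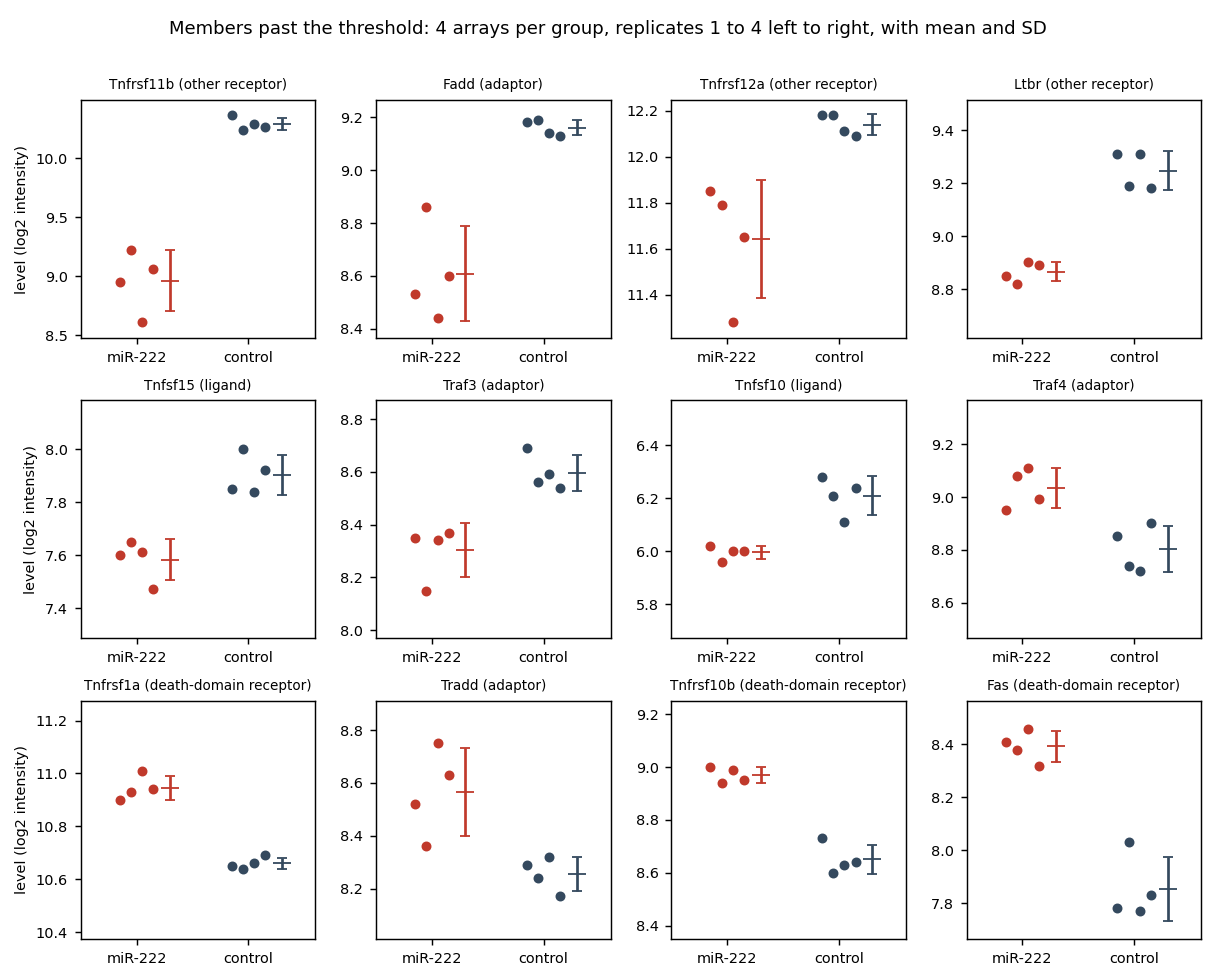
Level in each array (y axis, log2 intensity, scaled per gene) of the 12 members past the threshold, with the 4 miR-222 arrays left of the 4 control arrays in each panel, and the mean with its SD beside the points. The groups are apart in all 12 panels, and miR-222 replicate 3 is the lowest point for Tnfrsf11b, Fadd and Tnfrsf12a.

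Among the other receptors, Tnfrsf11b encodes osteoprotegerin, a secreted receptor that binds RANKL and TRAIL and so keeps them from their signalling receptors. It measured 8.95, 9.22, 8.61 and 9.06 with miR-222, against 10.36, 10.24, 10.29 and 10.26 with control. The control arrays lay close together and every miR-222 array was lower by more than the spread of either group. The level averaged 8.96 ± 0.26 in miR-222 arrays and 10.29 ± 0.05 in control arrays (SD, n = 4 each), a log2 fold change of -1.33 (SE 0.12, limma adjusted p = 0.000269). Without miR-222 replicate 3, the lowest array, the change was -1.21 (adjusted p = 0.00018). Set side by side, the 3 measured genes of the TRAIL system stood at -0.21 for the ligand Tnfsf10, 0.32 for the signalling receptor Tnfrsf10b and -1.33 for the decoy Tnfrsf11b. Of the RANKL system, Tnfsf11 did not pass while the decoy was lower. In the same arrays 2 of 8 fibroblast markers and 1 of 5 smooth muscle markers were called lower, as given above.

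Tnfrsf12a encodes Fn14, the receptor of TWEAK, and was the brightest member at the percentile 95.3 of gene levels. It measured 11.85, 11.79, 11.28 and 11.65 with miR-222, against 12.18, 12.18, 12.11 and 12.09 with control. The groups did not overlap, and miR-222 replicate 3 lay below the other 3 miR-222 arrays. The log2 fold change was -0.49 (SE 0.12, limma adjusted p = 0.0209) with all arrays and -0.37 without miR-222 replicate 3 (adjusted p = 0.00618). The call was lost without control replicate 1 (adjusted p = 0.0578) or control replicate 2 (adjusted p = 0.0566). Tnfsf12, its ligand gene, did not pass at 0.21.

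Ltbr, the receptor of lymphotoxin that activates the noncanonical NF-kappaB pathway, measured 8.85, 8.82, 8.90 and 8.89 with miR-222, against 9.31, 9.19, 9.31 and 9.18 with control. The miR-222 arrays lay close together and below all control arrays, at a log2 fold change of -0.38 (SE 0.05, limma adjusted p = 0.00121). Ltbr lies beside Tnfrsf1a on chromosome 4 with 1 other protein-coding gene between them in the RefSeq assembly GRCr8, and Cd27 lies on its other side, again with 1 gene between. These 3 neighbours stood at -0.38 for Ltbr, 0.29 for Tnfrsf1a and -0.02 for Cd27, the gene of a costimulatory receptor on T cells, whose groups overlapped. On chromosome 20 the adjoining genes Lta, Tnf and Ltb all overlapped between groups, and on chromosome 10 the adjoining genes Tnfsf13 and Tnfsf12 stood at 0.04 and 0.21 and did not pass.

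The other 11 receptors did not pass, and the groups overlapped in each. Tnfrsf26 differed by 0.21 (limma adjusted p = 0.161) and Tnfrsf19, a receptor known from development, by 0.20 (limma adjusted p = 0.292). Tnfrsf1b, the TNF receptor 2 of leukocytes and endothelium, measured 6.78 to 7.09 with miR-222 and 6.91 to 7.13 with control, a difference of -0.07 with an interval of -0.25 to 0.12. Cd40, the receptor through which T cells activate B cells and macrophages, differed by 0.04 (interval -0.17 to 0.24). The lymphocyte receptor genes Tnfrsf4, Tnfrsf8, Tnfrsf9, Tnfrsf14, Tnfrsf17 and Tnfrsf18 and Cd27 had mean levels between 6.59 and 7.40 and differences between -0.03 and 0.15.

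Of 6 adaptor genes 2 were called higher, 2 lower and 2 did not pass, beside 24.7% of all genes called and 39.5% of those above the median level, where all 6 adaptors lay. Fadd measured 8.53, 8.86, 8.44 and 8.60 with miR-222, against 9.18, 9.19, 9.14 and 9.13 with control. The control values lay within a narrow band and all miR-222 values lay below it, with replicate 2 the closest. The log2 fold change was -0.55 (SE 0.08, limma adjusted p = 0.00306). Fas, which recruits Fadd, was higher in the same arrays. Tradd, the adaptor of TNF receptor 1, measured 8.52, 8.36, 8.75 and 8.63 with miR-222, against 8.29, 8.24, 8.32 and 8.17 with control. The groups came close, and the log2 fold change was 0.30 (SE 0.08, limma adjusted p = 0.0379). That call was kept only without miR-222 replicate 2 and was lost without any other single array (adjusted p = 0.0602 to 0.093), and also under quantile normalization (adjusted p = 0.0661) and median centring (adjusted p = 0.0938).

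The TRAF genes split as well. Traf3, which holds back noncanonical NF-kappaB signalling below Ltbr and Cd40, measured 8.35, 8.15, 8.34 and 8.37 with miR-222, against 8.69, 8.56, 8.59 and 8.54 with control. Every miR-222 array lay below every control array, replicate 2 furthest, at a log2 fold change of -0.29 (SE 0.06, limma adjusted p = 0.0119). Traf4, a family member with a role in development and cell migration, measured 8.95, 9.08, 9.11 and 8.99 with miR-222, against 8.85, 8.74, 8.72 and 8.90 with control. The gap between the groups was small. The log2 fold change was 0.23 (SE 0.06, limma adjusted p = 0.0299), and the call held without miR-222 replicate 1 or control replicate 4 but was lost when any of the other 6 arrays was left out (adjusted p up to 0.0826). Traf2, which links TNF receptors to ubiquitin ligases, differed by -0.09 (interval -0.23 to 0.05), and Traf6, which serves CD40 and Toll-like receptors, by -0.07 (interval -0.20 to 0.06).

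Promoters are shown for a receptor and its adaptor that moved apart, Fas and Fadd, and for a pair of near neighbours that moved apart, Tnfrsf1a and Ltbr. They run from 250 bases before the start of the gene to 50 after it, on the strand of the gene (RefSeq, GRCr8). Capitals mark matches on either strand to the NF-kappaB consensus and to the AP-1 motif TGANTCA, 2 families of factors that TNF receptors activate. The Fas promoter (chr1:241211905-241212204, plus strand) held an NF-kappaB match that begins 242 bases before the start and an AP-1 match that begins 205 bases before it. The Fadd promoter (chr1:209174880-209175179, minus strand) held an NF-kappaB match that begins at base 15 after the start. The promoters of Tnfrsf1a (chr4:159836869-159837168, plus strand) and Ltbr (chr4:159801467-159801766, minus strand) held no match to either.
Fas: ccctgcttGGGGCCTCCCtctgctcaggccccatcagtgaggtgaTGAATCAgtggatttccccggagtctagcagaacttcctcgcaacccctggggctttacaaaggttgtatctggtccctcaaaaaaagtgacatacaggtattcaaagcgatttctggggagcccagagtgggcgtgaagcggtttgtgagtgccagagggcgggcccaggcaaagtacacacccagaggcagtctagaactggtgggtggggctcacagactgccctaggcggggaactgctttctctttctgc
Fadd: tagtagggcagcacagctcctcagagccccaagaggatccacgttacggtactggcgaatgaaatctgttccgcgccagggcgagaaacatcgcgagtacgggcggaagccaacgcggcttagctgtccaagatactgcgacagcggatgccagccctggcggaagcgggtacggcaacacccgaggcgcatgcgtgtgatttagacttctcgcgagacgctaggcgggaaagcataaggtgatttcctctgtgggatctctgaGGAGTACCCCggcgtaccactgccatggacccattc
Tnfrsf1a: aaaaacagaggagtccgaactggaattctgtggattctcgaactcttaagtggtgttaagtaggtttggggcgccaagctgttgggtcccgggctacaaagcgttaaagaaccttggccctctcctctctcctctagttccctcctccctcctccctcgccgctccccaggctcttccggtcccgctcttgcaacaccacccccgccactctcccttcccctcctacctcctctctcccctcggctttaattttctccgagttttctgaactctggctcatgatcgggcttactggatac
Ltbr: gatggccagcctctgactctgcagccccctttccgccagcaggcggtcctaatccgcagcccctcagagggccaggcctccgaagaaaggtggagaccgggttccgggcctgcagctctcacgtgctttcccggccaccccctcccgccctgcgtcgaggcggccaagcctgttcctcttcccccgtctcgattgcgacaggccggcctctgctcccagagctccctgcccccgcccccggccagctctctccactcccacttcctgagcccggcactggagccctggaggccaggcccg

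Promoter sequences were matched for 29 of the 43 genes. An NF-kappaB match stood in 7 of them (24.1%), beside 7.51% of all 33469 promoters, and an AP-1 match in 4 (13.8%), beside 7.33%. The 33469 promoters outnumber the 14506 genes measured, so these shares come from unlike sets. The promoters with an NF-kappaB match belonged to Cd70, Fadd, Fas, Lta, Ltb, Tnfrsf8 and Traf3, and of these Fas was higher, Fadd and Traf3 were lower and the other 4 did not pass. A match is a description of the letters in this window and was not tested against the changes.

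None of the 4 Ripk kinase genes was called by limma, and 1 of them, Ripk3, had an unadjusted p under 0.05, at 0.022. Ripk3, the kinase that triggers necroptosis, measured 7.41 to 7.64 with miR-222 and 7.62 to 7.84 with control, so the groups overlapped, and the difference of -0.19 (SE 0.07) did not pass (limma adjusted p = 0.0921, but 0.0473 without miR-222 replicate 2). Ripk1, the scaffold and kinase below TNF receptor 1, differed by -0.12 (interval -0.25 to 0.02). Ripk2, which acts below the NOD receptors of bacterial cell walls, differed by 0.07 (interval -0.03 to 0.16), and Ripk4, a kinase of epidermal development, by -0.02 (interval -0.17 to 0.14).

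Genes of the pathway came from a list of mostly intracellular genes that act below these receptors. It also held the membrane protease gene Adam17, which did not pass at 0.12. Of the 50 listed genes 44 were measured. Of these 6 were called higher and 9 lower (34.1%, beside 24.7% of all genes and 39.5% of those above the median level). The listed genes were bright, with a median level of 9.84 log2 units against 8.39 over all genes. The split was 3 higher and 9 lower with each array centred on its median. The median log2 fold change of the list was 0.01. Mapk8, the gene of the stress kinase JNK1, had the largest change of the list, with 9.54, 9.69, 9.33 and 9.56 in miR-222 arrays against 10.45, 10.34, 10.33 and 10.31 in control arrays. The groups were far apart, at a log2 fold change of -0.83 (SE 0.08, limma adjusted p = 0.00033). Mapk9, the gene of JNK2, fell by 0.32 (SE 0.04) and Map2k7, a kinase that activates JNK, by 0.39 (SE 0.05), whereas Map2k4, another such kinase, rose by 0.24 (SE 0.04). Ube2n, which builds the ubiquitin chains that TRAF proteins use, fell by 0.37 (SE 0.04). Among genes of linear ubiquitin chains, Sharpin, part of the ligase, fell by 0.29 (SE 0.04) and Otulin, which removes such chains, by 0.28 (SE 0.04).

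Genes next to caspase-8 were mixed. Bid, which carries the signal of caspase-8 to mitochondria, measured 8.44, 8.42, 8.59 and 8.28 with miR-222, against 8.0, 7.83, 7.94 and 7.87 with control. It was higher in all 4 miR-222 arrays than in any control array, at 0.52 (SE 0.07, limma adjusted p = 0.00193). Diablo, a mitochondrial protein that blocks inhibitors of apoptosis, rose by 0.20 (SE 0.04, limma adjusted p = 0.0137), a call lost with median centring (adjusted p = 0.0952). Cflar, which encodes the caspase-8 inhibitor FLIP and was named after its value was seen, fell by 0.29 (SE 0.05, limma adjusted p = 0.00787). Casp8 itself stood at 0.18 and did not pass (limma adjusted p = 0.202), and Birc2 and Xiap, inhibitors of apoptosis, at 0.11 and -0.03, also did not pass. Nfkb2, the noncanonical NF-kappaB subunit gene, rose by 0.31 (SE 0.06), while the canonical subunit genes Nfkb1 and Rela stood at -0.04 and 0.01 and did not pass. The remaining higher genes were Tnip2 at 0.30, whose groups overlapped, and Tab2 at 0.12, whose groups did not. The call of Tnip2 held without miR-222 replicate 4 or control replicate 4 and was lost when any of the other 6 arrays was left out (adjusted p up to 0.0897), that of Tab2 without any single array (adjusted p up to 0.124), and both with median centring.

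**Figure D4:**
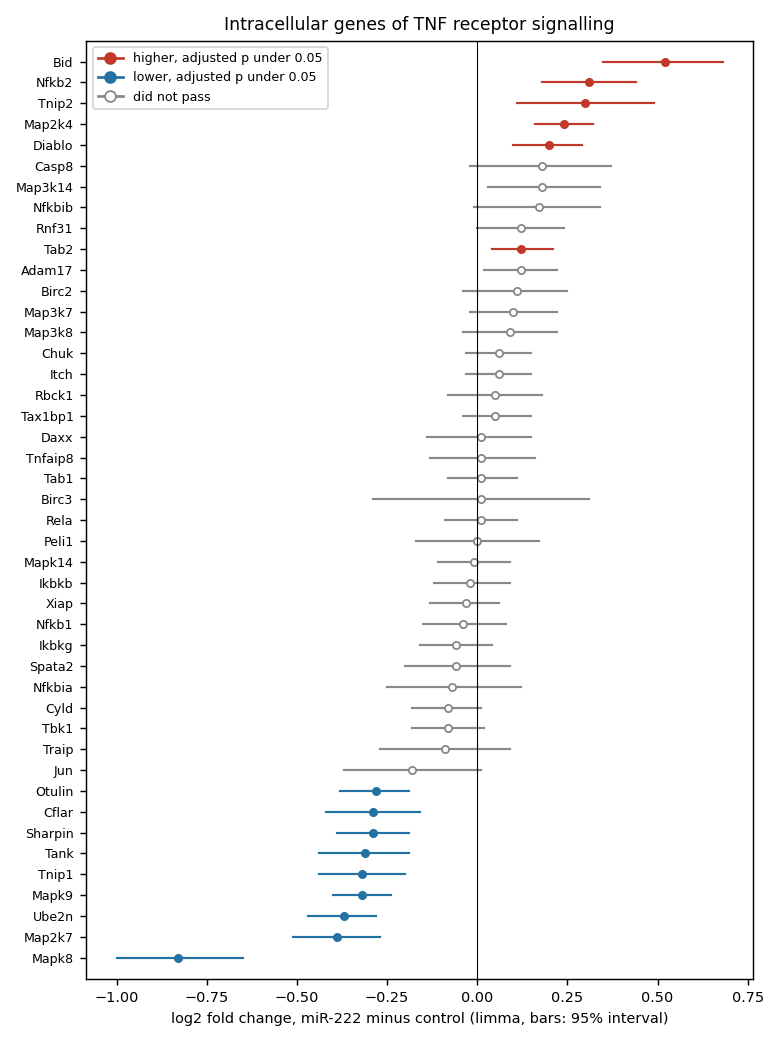
Log2 fold change of miR-222 minus control (x axis) of the 44 measured genes listed for TNF receptor signalling, mostly intracellular (y axis). Bars give the 95% interval of the limma fit, and filled points mark genes past the threshold. Mapk8 lies lowest at -0.83 and Bid highest at 0.52.

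Genes known as NF-kappaB targets, a second list of 25 of which 22 were measured and some also stand in the first, gave 3 higher and 5 lower (36.4%, beside 24.7% of all genes), with a median of -0.04. Ptgs2, the inducible prostaglandin synthase, fell by 1.27 (SE 0.11, limma adjusted p = 0.000212). The chemokine genes Ccl2 and Ccl20 fell by 0.43 (SE 0.10) and 0.35 (SE 0.09), the adhesion gene Vcam1 by 0.33 (SE 0.08) and Tnip1, which restrains NF-kappaB, by 0.32 (SE 0.05). Bcl3, a nuclear partner of NF-kappaB, rose by 0.36 (SE 0.08) and the interferon factor gene Irf1 by 0.33 (SE 0.08), beside Nfkb2. The call of Ccl2 was lost when control replicate 1, 2 or 4 was left out (adjusted p up to 0.0607), that of Ccl20 without miR-222 replicate 1 or control replicate 1 or 3 (up to 0.0718) and that of Vcam1 without miR-222 replicate 4 or control replicate 1, 2 or 3 (up to 0.0636). That of Irf1 was lost without miR-222 replicate 1 or 4 or control replicate 2 or 4 (up to 0.0574) and with median centring (adjusted p = 0.0603). Il6, Icam1 and Nfkbia, among the best known targets, stood at -0.07, 0.02 and -0.07 and did not pass.

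**Figure D5:**
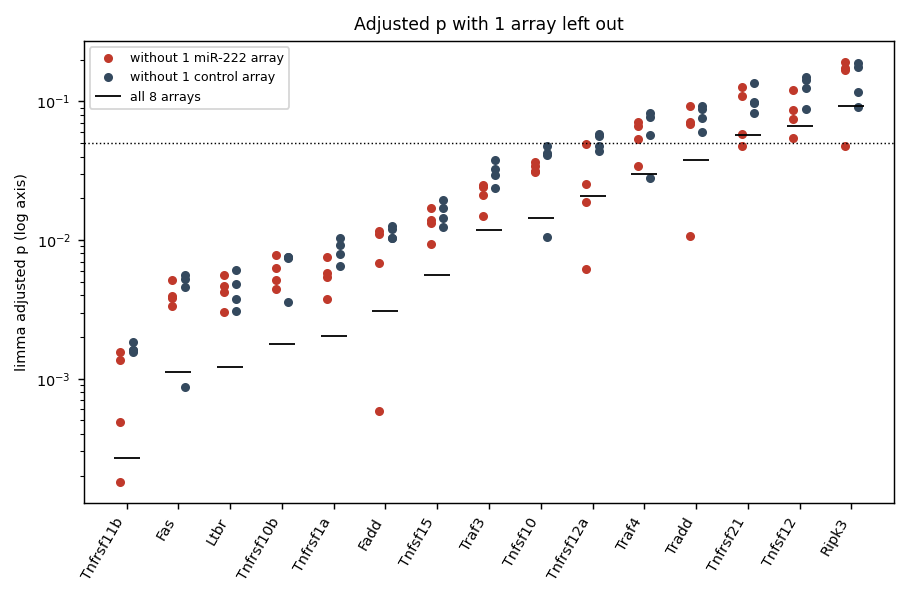
Limma adjusted p (y axis, log scale) of the 12 members past the threshold and of Tnfrsf21, Tnfsf12 and Ripk3 (x axis), with all 8 arrays (black bar) and with each miR-222 array (red) or control array (dark blue) left out, the dotted line being the threshold. For 9 of the 12 members all points lie below the line, and for Tnfrsf12a, Traf4 and Tradd some lie above it.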

How the data were processed

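Gene expression was measured on 8 arrays, 4 of cells given a miR-222 precursor and 4 of cells given a scrambled control precursor. Per the labels' protocols, in vitro transcription made biotinylated RNA for the arrays. The deposited intensity values were on a linear scale and had been processed and brought to a common scale by the authors, by a method not given in the sources used here. The series text names another Affymetrix rat array, whereas the 29170 identifiers pair with the annotation of the Rat Gene 1.0 ST array, which was used for names. Of them 15310 paired with 1 gene, 323 with several and 13537 with no gene name. Values were taken as log2 with no added constant (212 values were at 1 or below). A gene was represented by its brightest probe set among those paired with it alone.

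The fit used lmFit and eBayes of limma 3.58.1 (R 4.3.3) over every probe set, and its two-sided p-values were adjusted over all of them. Intervals are unadjusted 95% intervals of that fit. Arrays carry no depth, so their number limits the precision. Alternatives were an offset of 16, quantile normalization, median centring, leaving out probe sets under the 25th percentile of level, a trended and robust spread, array weights, adjustment over genes only, the mean of a gene's probe sets, and leaving out each array. Replicates are numbered in the order of listing. Values in every array are given for members past the threshold with an absolute log2 fold change of at least 0.5 and for members of a described ligand and receptor pair that passed. Those of Tnfsf15, Tnfsf12, Tnfrsf21, Tradd, Traf3 and Traf4 were added outside that rule, and up to 6 pathway genes in each direction are named, with others added after their values were seen. The members, roles and gene lists were chosen with earlier results of these data known. Figures were drawn with matplotlib 3.10.9.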

Additional observations from a re-analysis of the deposited data

Results flagged for a closer look

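In 3 of 86 groups of 4 arrays, 1 array lay further from the others than the 95% limit of Dixon's test, which chance does in about 1 group in 20. Traf3 stood at 8.15 log2 units in miR-222 replicate 2, whereas miR-222 replicates 1, 3 and 4 stood at 8.34 to 8.37. Tnfsf9 stood at 7.44 in miR-222 replicate 2, against 7.10 to 7.14 in the other 3. Ripk4 stood at 6.97 in miR-222 replicate 4, against 7.15 to 7.18 in the other 3. Without these arrays Traf3 was called lower as before, at -0.24 (limma adjusted p = 0.0148), and Tnfsf9 and Ripk4 did not pass.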

How the results depend on the processing

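The count of 12 called members was 11 to 13 under the other alternatives and 9 to 12 with 1 array left out. The 5 higher members were 3 to 4 with 1 array left out (3 without miR-222 replicate 3 or control replicate 1, 2 or 3), and the 7 lower members were 6 to 8. Fewer arrays enter these fits. The calls lost were those of Tnfrsf12a, Tradd and Traf4, whereas the other 9 called members kept theirs without any single array. Under the other alternatives 10 of the 12 kept their call wherever a value could be had, all but Tradd and Tnfsf10, and Tnfsf10 had no value once dim probe sets were left out. No called member changed direction under any alternative run. The family median of -0.02 ranged from -0.06 (without miR-222 replicate 2) to 0.03 (without miR-222 replicate 1) with 1 array left out. Pathway genes called higher numbered 3 with median centring, against 6, and the cause was not tested. All genes called numbered 2687 to 3405 with 1 array left out and 3054 to 4190 otherwise, against 3581. Other probe sets of the members could not be tried, since each had 1. No paired analysis was possible because the labels give no replicate numbers.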
